A study of Mus musculus with 32 samples.

Results

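Rgs1, Rgs2, Rgs13, Rgs16 and Rgs18 are 5 regulators of G protein signalling on mouse chromosome 1, and 26 of the 99037 open regions of the developmental count table belong to them. A region was given to a gene when its midpoint lay inside the mm10 span of that gene, or within 50000 bp of it with no other span nearer. The 5 genes were chosen by their openness after birth, measured in these libraries, so their levels across birth and between marrow stages are given as a description, without a test. Rgs2 had 9 regions, Rgs1 had 8, Rgs13 had 4, Rgs18 had 3 and Rgs16 had 2, and all 26 passed the filter on low counts.

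RGS proteins switch off signals from G protein coupled receptors. They speed up the hydrolysis of GTP by the alpha subunit of a heterotrimeric G protein, after which the alpha subunit returns to its partners. All 5 belong to the small R4 subfamily, in which the RGS domain makes up most of the protein, and several of them dampen the response of white blood cells to chemokines such as the ligand of CXCR4. RGS2 acts preferentially on the Gq class of alpha subunits, RGS1 and RGS16 act on the Gi and Gq classes, RGS13 is known from germinal centre B cells and mast cells, and RGS18 is found mainly in blood cells and platelets.

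The assay was ATAC-seq. Its transposase, Tn5, inserts adapters where chromatin is accessible, so the values describe chromatin and not transcripts. LSK cells of C57BL/6 mice were used: they lack lineage markers, carry Sca-1 and Kit, and are rich in blood stem and progenitor cells. The developmental libraries fell into 9 groups: E12.5 PL, a label that is not spelled out, E12.5 fetal liver (FL), E16.5 FL, perinatal bone marrow (BM), and BM of 5 later ages (1w BM, 3w BM, 4w BM, 6w BM, 8w BM), each with 3 libraries except 3w BM with 2. A separate experiment kept E12.5 FL cells for 2 h in a medium conditioned by hepatocytes of E16.5 (co-SHI, 3 libraries) or in basic medium (SHI, 3 libraries). The labels name no allele or other agent, and are silent on whether each library had its own animals. P-values therefore measure only the spread between libraries, which may be technical.

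Total counts ran from 2845113 to 10167340 in the 26 developmental libraries and from 7512258 to 20092146 in the 6 cultured ones. For 8w BM 3 the title and the stage label (E12.5) disagree, and it was kept with 8w BM by its title. All 15 LSK marker genes looked up had regions. Kit summed to between 78.9 and 174 CPM over the libraries, and Ly6a, which encodes Sca-1, had 1 region at 0.357 to 5.51 CPM. CPM here are a library's counts scaled to a common total with TMM factors. In bulk libraries, fewer cells of a type and less openness per cell cannot be told apart.

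Rgs2, Rgs13, Rgs1 and Rgs18 lie in one stretch of 876.1 kb with their flanks, from chr1:143999338-144004149 (Rgs2) through chr1:144137386-144177372 (Rgs13) and chr1:144244669-144249104 (Rgs1) to chr1:144752683-144775427 (Rgs18). Rgs16 lies apart at chr1:153740353-153745468. RefSeq promoter windows of the build GRCm38.p6, from 250 bases before to 50 after the start, were at hand for Rgs2, Rgs13 and Rgs16. They are shown because the chromatin of these 3 promoters differs: the window of Rgs2 (chr1:144004100-144004399, minus strand) and that of Rgs16 (chr1:153740103-153740402, plus strand) lay in a region of the developmental table, and that of Rgs13 (chr1:144177323-144177622, minus strand) overlapped none. Capitals mark matches to the motifs searched.
Rgs2: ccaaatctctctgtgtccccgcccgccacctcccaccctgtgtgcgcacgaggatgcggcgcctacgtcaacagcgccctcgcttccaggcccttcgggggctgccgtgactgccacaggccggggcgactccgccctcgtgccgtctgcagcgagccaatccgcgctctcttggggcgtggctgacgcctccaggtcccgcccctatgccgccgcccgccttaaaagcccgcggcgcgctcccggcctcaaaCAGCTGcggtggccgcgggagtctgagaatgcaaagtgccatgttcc
Rgs13: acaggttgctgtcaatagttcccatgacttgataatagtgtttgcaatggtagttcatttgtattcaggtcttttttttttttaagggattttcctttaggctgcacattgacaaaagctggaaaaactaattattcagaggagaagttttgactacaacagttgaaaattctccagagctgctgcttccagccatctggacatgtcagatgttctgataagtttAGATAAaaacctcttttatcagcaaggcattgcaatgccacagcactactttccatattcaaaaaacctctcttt
Rgs16: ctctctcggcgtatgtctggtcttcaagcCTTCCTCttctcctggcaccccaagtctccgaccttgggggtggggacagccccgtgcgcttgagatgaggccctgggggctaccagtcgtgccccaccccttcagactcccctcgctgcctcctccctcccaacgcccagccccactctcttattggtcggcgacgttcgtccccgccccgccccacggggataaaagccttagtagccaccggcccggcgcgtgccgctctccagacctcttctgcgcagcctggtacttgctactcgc

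The 3 windows differed in base composition. That of Rgs2 had 70.0% G and C and 33 CpG, that of Rgs16 had 66.0% and 22 CpG, and that of Rgs13 had 36.7% and 0 CpG. The medians of all 27025 promoter windows were 52.7% and 7 CpG. All motif strings below were searched on both strands, and each window matched 1 of them. The E-box CAGCTG began at base 254 of the Rgs2 window, counted from 1 at its 5′ end, and is found in 16.1% of all windows. The GATA string AGATAA began at base 226 of the Rgs13 window (11.4% of all windows). The PU.1 string GAGGAAG lay on the opposite strand from base 30 of the Rgs16 window (13.5% of all windows). No match was found to RUNX TGTGGT (16.9% of all windows), AP-1 TGANTCA (7.93%), the cyclic AMP response element TGACGTC (3.33%), STAT TTCNNNGAA (8.47%) or the TATA box TATAAA (14.2%).

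Rgs1 showed the widest range of the 5 genes over development. Counts summed over its 8 regions averaged 22.5 CPM in E12.5 PL, 98.1 in E12.5 FL, 77.2 in E16.5 FL, 129.6 in perinatal BM, 159 in 1w BM, 268 in 3w BM, 193 in 4w BM, 446 in 6w BM and 336 in 8w BM. All 14 libraries of 1w to 8w BM were above all 6 fetal liver libraries. Marrow had 138 to 542.5 CPM with a median of 263, and fetal liver had 64.1 to 128.0 CPM with a median of 83.1. How many of all genes or regions separated to such a degree was not counted, here or for the members below. The fitted log2 fold change of 1w to 8w BM over fetal liver was 1.59 (SE 0.11), and 0.0118% of the 16956 genes tested had a higher one. By edgeR, 27.8% of all genes were called higher and 27.7% lower in this contrast. Nothing is read from these shares or from the rank of Rgs1, since the members were chosen by their openness after birth in these libraries. In descending order of the means, 6w and 8w BM overlapped, as did 8w and 3w BM. 3w BM lay above 4w BM without overlap, the groups from 4w BM down to E16.5 FL overlapped step by step, and E12.5 PL lay below all others.

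**Figure D1:**
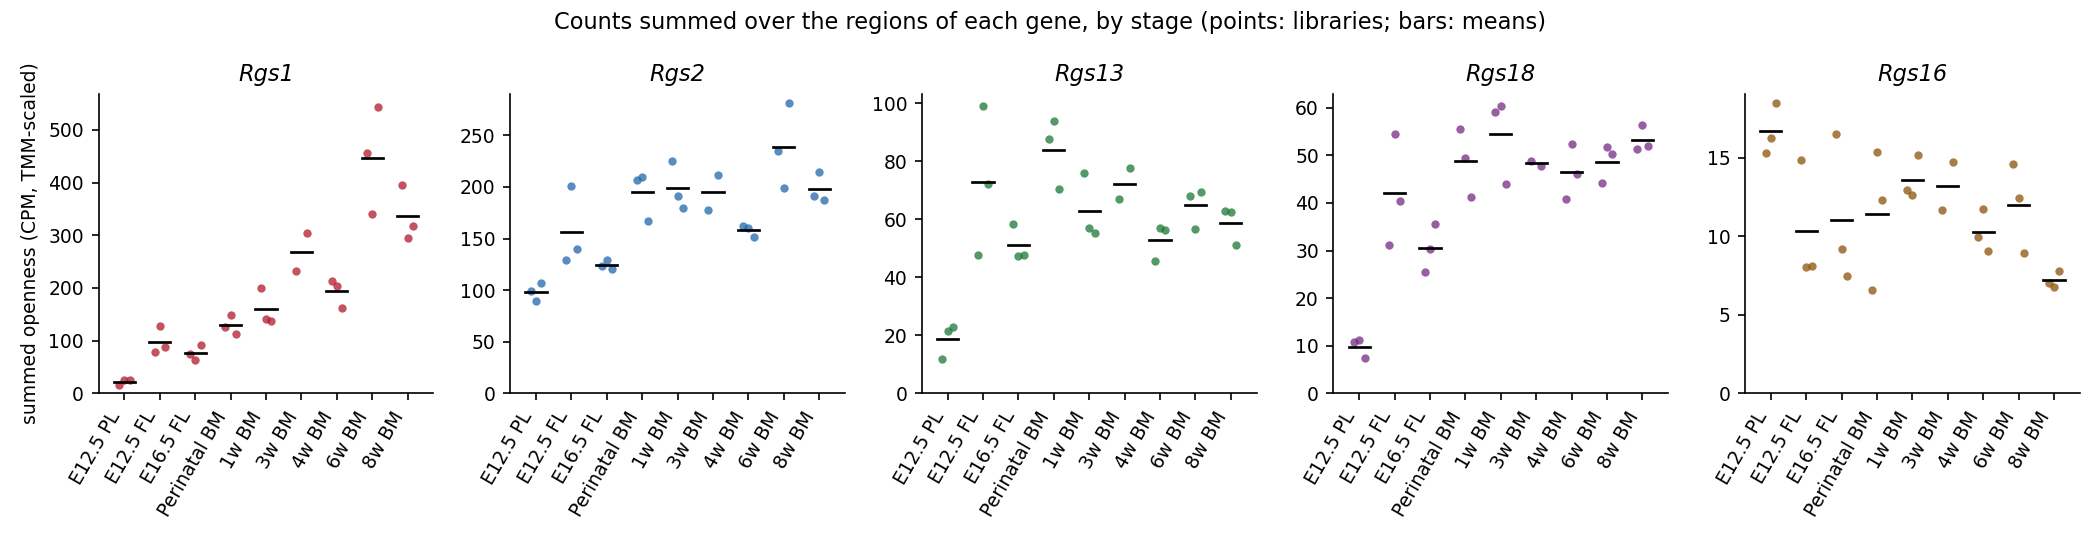
Counts summed over the regions of each gene, in TMM-scaled CPM on linear axes that start at 0, for the 9 developmental groups; points are libraries and bars are group means. Rgs1 has its highest mean in 6w BM, at 446 CPM, Rgs13 in perinatal BM, at 84.0 CPM, and Rgs16 in E12.5 PL, at 16.7 CPM.

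The tallest Rgs1 region, chr1:144243262-144244691, covers the lower-coordinate end of the gene and carried most of this range. Its midpoint lies 693 bp outside the gene span. CPM are not divided by region width, and this region is the widest of the Rgs1 regions. Its level was 4.57, 6.75 and 10.9 CPM in the E12.5 PL libraries, 21.1, 29.7 and 18.2 CPM in E12.5 FL and 13.5, 17.3 and 29.6 CPM in E16.5 FL. Perinatal BM had 26.4, 42.4 and 29.2 CPM, and 1w BM had 89.7, 44.9 and 48.0 CPM. All later libraries except 4w BM 3 were above the highest of these. The values were 118 and 172 CPM in 3w BM, 102, 94.9 and 79.2 CPM in 4w BM, 244, 192.5 and 327 CPM in 6w BM, and 228.5, 180.0 and 166 CPM in 8w BM. The 6w libraries lay above those of 3w BM and 4w BM and overlapped 8w BM. The log2 fold change was 2.61 (SE 0.155) for 1w to 8w BM over fetal liver, and 0.0313% of the 99005 regions tested had a higher one. Nothing is read from this rank either, for the same reason as for the summed Rgs1 counts.

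The regions on both sides of the tallest one were lower and also had their highest mean in 6w BM. The next region towards the inside of the gene, chr1:144244736-144245397, had a mean of 7.38 CPM in E12.5 FL, 5.18 in E16.5 FL, 4.55 in perinatal BM, 11.9 in 1w BM, 26.9 in 3w BM, 24.6 in 4w BM, 56.9 in 6w BM and 40.3 in 8w BM. The region just outside the gene, chr1:144242327-144242827, averaged 10.1 CPM in 1w BM, 42.8 in 6w BM and 23.0 in 8w BM. One library set it apart: 6w BM 2 had 11.1 CPM, and the other 6w libraries had 59.1 and 58.3 CPM. The log2 fold changes of 1w to 8w BM over fetal liver were 2.18 and 2.00 for these 2 regions. Over the 23 libraries other than E12.5 PL, their log2 levels followed that of the tallest region with r = 0.941 and 0.876, a description, since the points share their stage and library depth.

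The region at the other end of Rgs1 differed in its timing, though its highest mean was also in 6w BM, at 41.07 CPM. At chr1:144248842-144249431, the higher-coordinate end, E12.5 PL had 1.44, 5.40 and 2.78 CPM, E12.5 FL had 9.96, 21.1 and 19.6 CPM and E16.5 FL had 13.0, 7.004 and 11.7 CPM. All perinatal BM libraries were above these, at 32.5, 38.9 and 27.4 CPM. The marrow stages after that overlapped perinatal BM: 36.1, 23.1 and 29.5 CPM in 1w BM, 31.1 and 23.1 CPM in 3w BM, 22.2, 29.3 and 22.2 CPM in 4w BM, 32.4, 43.6 and 47.1 CPM in 6w BM, and 22.3, 30.8 and 26.5 CPM in 8w BM. Perinatal BM over E16.5 FL gave a log2 fold change of 1.64 here (1.28 with cyclic loess offsets) and 0.71 in the tallest region (0.24 with cyclic loess). 8w BM over 1w BM gave −0.17 here, against 1.64 in the tallest region and 1.74 in the region next to it. The tallest region held 23.2 to 39.3% of the summed Rgs1 counts in E16.5 FL libraries, 23.7 to 31.5% in perinatal BM and 57.1 to 63.6% in 6w and 8w BM.

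**Figure D2:**
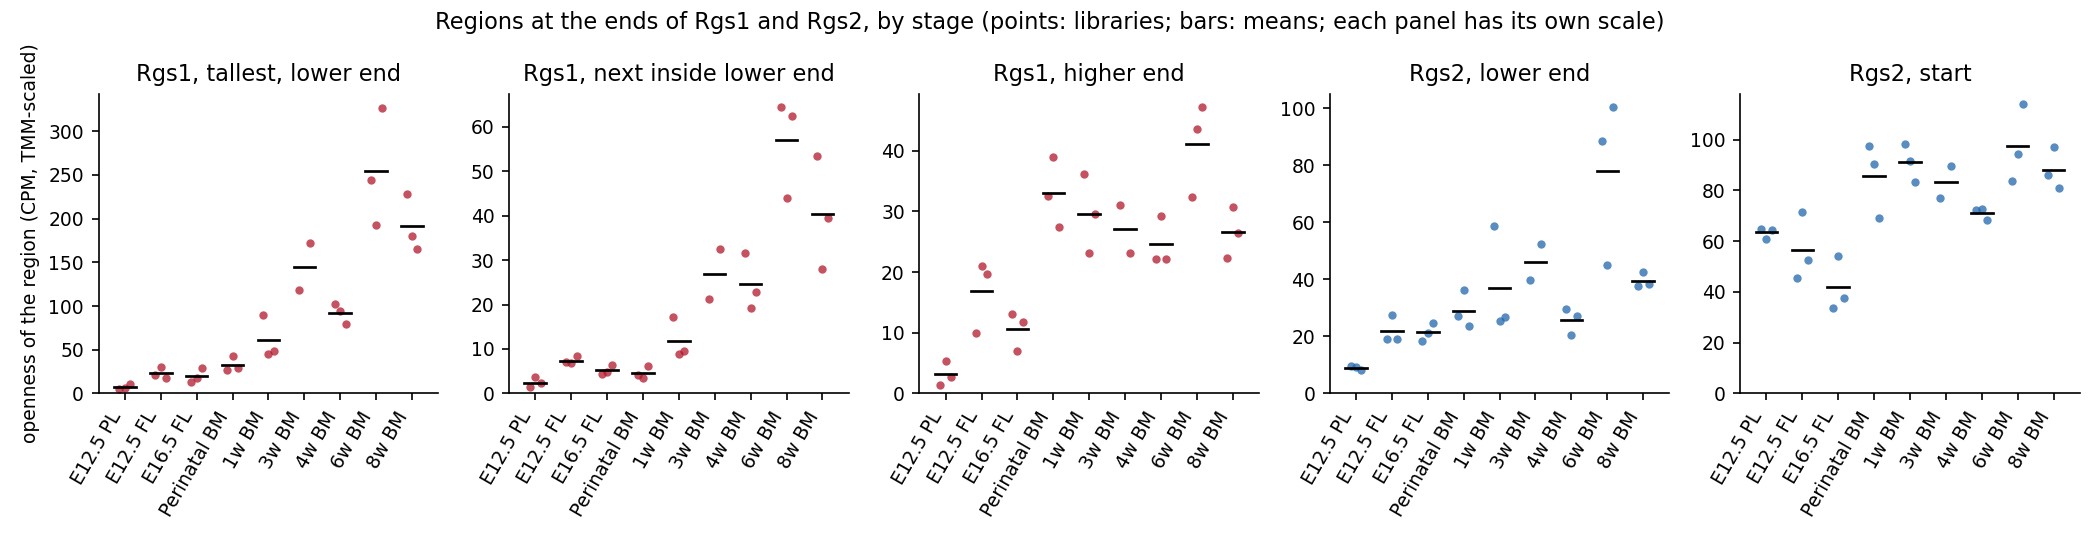
Level of 5 regions at the ends of Rgs1 (red) and Rgs2 (blue) in TMM-scaled CPM, on linear axes that start at 0 and differ between panels; points are libraries and bars are group means. The 2 regions at the lower-coordinate end of Rgs1 are highest in 6w BM. The one at its higher-coordinate end reaches 33.0 CPM in perinatal BM. Its later means run from 24.55 CPM (4w BM) to 41.07 CPM (6w BM). The lower-coordinate end of Rgs2 and its promoter region also have their highest means in 6w BM, at 78.0 and 97.37 CPM.

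The remaining Rgs1 regions were low. The 4 regions at chr1:144215150-144215704, chr1:144256830-144257441, chr1:144258325-144259215 and chr1:144283225-144284187 ran from 0.762 to 20.8 CPM over all libraries, and marrow and fetal liver overlapped in each. Peaks that the authors called per library were set beside these levels. The tallest region overlapped a called peak in 0 of 3 E12.5 PL libraries, 2 of 3 E12.5 FL libraries, 2 of 3 E16.5 FL libraries and all libraries of perinatal to 8w BM. The region next to it overlapped one in 4 of 26 libraries, all of 4w to 8w BM, and the higher-end region in 22 of 26.

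In Rgs2 the promoter region was open in every group, and both it and an end region varied in level. Group means of the promoter region ran from 41.78 CPM in E16.5 FL to 97.37 CPM in 6w BM. The region that holds the promoter, chr1:144004041-144004578, overlapped a called peak in 26 of 26 libraries. It had 64.9, 61.0 and 64.3 CPM in E12.5 PL, 45.3, 71.4 and 52.5 CPM in E12.5 FL and 33.6, 54.3 and 37.4 CPM in E16.5 FL. Perinatal BM had 97.6, 90.3 and 69.1 CPM, above all E16.5 FL libraries, and 1w to 8w BM had 68.3 to 114 CPM with a median of 85.0. The log2 fold change of 1w to 8w BM over fetal liver was 0.82 (SE 0.11) and 0.17 with cyclic loess offsets. Above the highest fetal liver library were 13 of 14 marrow libraries, a separation that was not counted over all regions.

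The Rgs2 promoter region and the higher-coordinate end of Rgs1 had their highest means in 6w BM, at 97.37 and 41.07 CPM. The share of all regions with their highest mean in that group was not counted. At the lower-coordinate end of Rgs2, which is its 3′ end, the highest mean was also in 6w BM, as in the tallest Rgs1 region. This region, chr1:143999310-144000454, had 58.9, 25.3 and 26.9 CPM in 1w BM, 39.95 and 52.6 CPM in 3w BM, 29.45, 20.5 and 27.2 CPM in 4w BM, 88.6, 44.9 and 101 CPM in 6w BM, and 37.8, 42.6 and 38.4 CPM in 8w BM. Marrow of 1w to 8w had 20.5 to 101 CPM with a median of 39.2, and fetal liver had 18.4 to 27.6 CPM with a median of 20.2, so the groups overlapped. The log2 fold change was 0.96, and 0.49 with cyclic loess. The log2 level had r = 0.82 with the tallest Rgs1 region over the 23 libraries other than E12.5 PL. In both regions 6w BM 2 was the lowest library of its group.

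Summed over its 9 regions, Rgs2 averaged 98.7 CPM in E12.5 PL, 157 in E12.5 FL, 124 in E16.5 FL, 195 in perinatal BM, 199 in 1w BM, 195 in 3w BM, 158 in 4w BM, 238 in 6w BM and 198 in 8w BM. Neighbours in descending order overlapped except that perinatal BM lay above 4w BM, E12.5 FL above E16.5 FL, and E16.5 FL above E12.5 PL. The log2 fold change of marrow over fetal liver was 0.49 (SE 0.08) and 0.27 with cyclic loess, with 5 of 14 marrow libraries above the highest fetal liver library. It was 0.80 with only regions whose midpoint lies inside the span, which leaves the lower-coordinate end region alone and drops the promoter region. The 5 Rgs2 regions beyond its lower-coordinate end, with midpoints 8879 to 43059 bp from the gene, ran from 0.712 to 8.90 CPM, and 1 of them, chr1:143990184-143990735, had a log2 fold change of −1.06.

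Rgs18 and Rgs13 were higher in every perinatal BM library than in every E16.5 FL library. How many of all genes separated in this way was not counted. Rgs18 had 55.6, 49.5 and 41.3 CPM in perinatal BM, against 25.4, 30.3 and 35.7 CPM in E16.5 FL. From 1w to 8w BM Rgs18 stayed between 40.8 and 60.3 CPM, and all marrow groups overlapped their neighbours in the order of means. Rgs13 reached its highest mean in perinatal BM, at 84.0 ± 12.1 CPM (SD, n = 3), against 51.2 ± 6.29 CPM in E16.5 FL (SD, n = 3). It was at 52.9 to 72.2 CPM on average in 1w to 8w BM, with 0 of 14 libraries above the highest fetal liver library. E12.5 FL overlapped perinatal BM in both genes, at 47.8 to 99.0 CPM for Rgs13 (mean 73.0) and 31.1 to 54.5 CPM for Rgs18. The log2 fold changes of perinatal BM over E16.5 FL were 0.75 for Rgs1, 0.72 for Rgs13, 0.68 for Rgs18 and 0.65 for Rgs2, with SE of 0.13 to 0.19. By midpoint, the only region inside the span is chr1:144244736-144245397 for Rgs1 and chr1:143999310-144000454 for Rgs2. With these alone, Rgs1 had −0.33 and Rgs2 had 0.32 at this step.

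Averaged over 1w to 8w BM and set against fetal liver, Rgs18 had a log2 fold change of 0.49 (SE 0.11) and Rgs13 one of 0.02 (SE 0.11), whose sign depended on the scaling (−0.06 with total counts, −0.08 with cyclic loess). The tallest of the 3 Rgs18 regions, chr1:144775237-144775791 at the higher-coordinate end of the gene, had 17.3 to 34.6 CPM in 1w to 8w BM and 11.1 to 20.8 CPM in fetal liver. There 12 of 14 marrow libraries were above the highest fetal liver library, which was not counted over all regions. The log2 fold change was 0.67, or 0.29 with cyclic loess. None of the 4 Rgs13 regions lay inside its span. The nearest, chr1:144184913-144185791, has its midpoint 7980 bp beyond the gene start and had a called peak in 24 of 26 libraries.

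Rgs16 was low in every group, and its perinatal BM and E16.5 FL libraries overlapped (log2 fold change 0.09, SE 0.30). Its summed level was 15.3, 16.3 and 18.5 CPM in E12.5 PL, and it lay between 6.58 and 16.52 CPM in all other libraries. It was 7.04, 6.81 and 7.78 CPM in 8w BM and 13.0, 12.6 and 15.2 CPM in 1w BM. All 8w libraries were below all 1w libraries, a separation not counted over all genes, with a log2 fold change of −0.93 (SE 0.29). Marrow over fetal liver gave 0.04 (SE 0.18), −0.05 with total counts and 0.45 with cyclic loess offsets. The authors' peaks at its promoter, chr1:153740026-153740611, were found in 3 of 3 E12.5 PL libraries, in 0 of 6 fetal liver libraries and in 10 of 14 libraries of 1w to 8w BM.

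**Figure D3:**
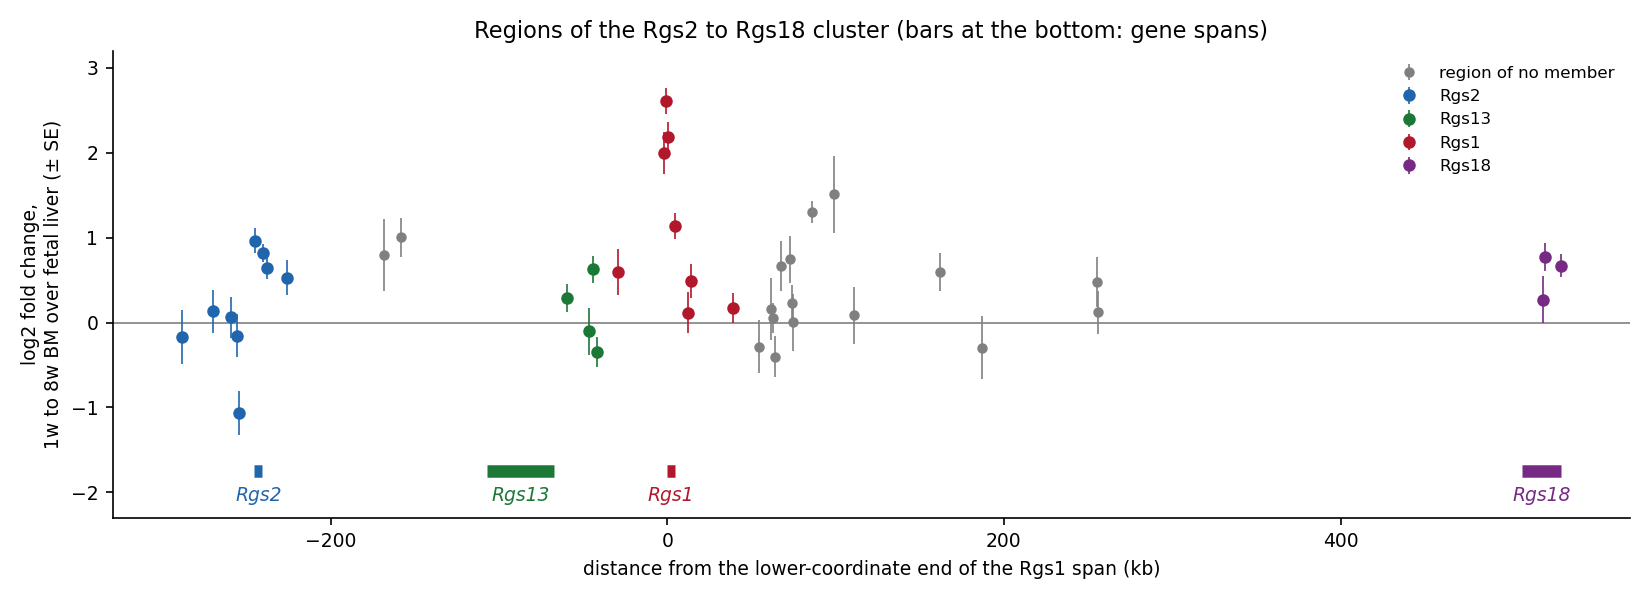
Log2 fold change of 1w to 8w BM over fetal liver for each region between Rgs2 and Rgs18, with its SE, against the distance in kb from the lower-coordinate end of the Rgs1 span; coloured points belong to a member gene, grey points to none, and bars mark the gene spans. The 3 regions at the lower end of Rgs1 stand highest, at 2.00 to 2.61, and the highest grey points are 1.3 and 1.51, at 81447 and 94392 bp from the Rgs1 span.

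The distance limit leaves out some chromatin between the genes. The outermost member region, chr1:143956014-143956544 of Rgs2, lies 43059 bp from its gene and had a log2 fold change of −0.18. Just past the limit, chr1:144299084-144299602 at 50239 bp from Rgs1 had −0.28, and chr1:144085995-144086564 at 51107 bp from Rgs13 had 1.00. Between Rgs2 and Rgs18 lay 17 regions that belong to no member, of which 5 were called higher and 0 lower in 1w to 8w BM than in fetal liver by the quasi-likelihood test of edgeR at an adjusted p under 0.05. Over all regions 20.5% were called higher and 21.2% lower, a split of 49.1% higher that was 27.5% with total counts, which moved the median of all regions from −0.11 to −0.34. The tallest of the 17, chr1:144330265-144330838, lies 81447 bp from Rgs1 and was singled out after its values were seen. It averaged 8.68 CPM in E12.5 PL, 39.2 in E12.5 FL, 28.7 ± 12.3 in E16.5 FL (SD, n = 3) and 64.0 ± 12.4 in perinatal BM (SD, n = 3). The means were 80.1 CPM in 1w BM, 80.1 in 3w BM, 74.1 in 4w BM, 96.4 in 6w BM and 84.2 in 8w BM. Its highest mean was thus in 6w BM, but its 6w libraries, at 82.8 to 103.8 CPM, overlapped those of 1w BM, at 57.2 to 109.7 CPM. In the tallest Rgs1 region all 6w libraries were above all 1w libraries.

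The genes around the members were called in both directions. Of 15 genes with regions whose span lies within 500000 bp of a member, 4 were called higher and 5 lower in marrow than in fetal liver, with a median log2 fold change of −0.01. Over all 16956 genes tested, 27.8% were called higher and 27.7% lower, with a median of −0.01. Near Rgs2 and Rgs1, Cdc73 (0.59), Uchl5 (0.46) and Glrx2 (0.27) were higher, and near Rgs16, Glul (0.19) was higher and Rgs8 (−0.81), Dhx9 (−0.60), Lamc1 (−0.58), Rgsl1 (−0.42) and Npl (−0.37) were lower. Rgs21, which lies between Rgs1 and Rgs18, had 0.09 (adjusted p 0.753 by edgeR).

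Genes whose summed level ran most like that of Rgs1 over the 26 libraries were Panx1 (r = 0.96), Ctla2b (0.951), Tigit (0.951), Stk16 (0.949) and Trim30c (0.949), among 12659 genes with a mean of at least 20 CPM. Without the 3 E12.5 PL libraries, which stand apart, these values were 0.922, 0.90, 0.878, 0.882 and 0.886 over 23 libraries. For Rgs2 the closest were Ctla2a (0.955) and Ctla2b (0.945), for Rgs18 Olfm5 (0.977) and Sp100 (0.971), for Rgs13 Slc38a11 (0.957) and Ptger3 (0.947), and for Rgs16 Tmem150a (0.751) and Dnajc9 (0.704). These fell without E12.5 PL. In the same order they were then 0.921 and 0.897, 0.863 and 0.842, 0.781 and 0.798, and 0.695 and 0.597. Among the members, Rgs1 and Rgs2 had r = 0.785 without E12.5 PL, Rgs2 and Rgs18 0.773, Rgs1 and Rgs18 0.61 and Rgs1 and Rgs13 0.144. The points of these values share their stages and their library scaling, and no p is given.

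Before birth, the members of the cluster were more open in E12.5 FL than in E12.5 PL. This contrast is not the gain after birth by which the genes were chosen, but the choice was made on levels in all 9 groups, both of these included. Calls of members between prenatal groups are therefore a description and no independent support. By the quasi-likelihood test of edgeR with Benjamini-Hochberg adjustment over all regions, 18 of the 26 member regions were called higher in E12.5 FL and 1 lower, with a median log2 fold change of 1.45. Of all 99005 regions, 23.1% were called higher and 26.4% lower, with a median of 0.09. The share of all calls that were higher was 46.7%, and it was 63.2% with total counts, which put the median of all regions at 0.38, and 35.4% with the size factors of DESeq2. With these scalings 19 and 18 member regions were called higher, and 13 with cyclic loess offsets.

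All 3 Rgs18 regions, 7 of 8 Rgs1 regions, 3 of 4 Rgs13 regions and 5 of 9 Rgs2 regions were called higher. The largest change was in chr1:144283225-144284187, 34602 bp from Rgs1, which had 8.15, 20.8 and 13.98 CPM in E12.5 FL, against 1.92, 1.58 and 1.39 CPM in E12.5 PL. Its log2 fold change was 3.12 (SE 0.38). The higher-coordinate end of Rgs1 had 2.37 (SE 0.32), and its tallest region had 1.63 (SE 0.28). The Rgs2 promoter region was not called, at −0.17 (SE 0.17), with overlapping libraries and a sign that turned with the scaling (0.44 with cyclic loess). The Rgs2 region chr1:143990184-143990735 rose by 2.24 (SE 0.45) and Rgs13 at chr1:144184913-144185791 by 2.37 (SE 0.32).

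Summed per gene, Rgs1 had 77.8, 128.0 and 88.4 CPM in E12.5 FL, against 16.3, 25.0 and 26.4 CPM in E12.5 PL, a log2 fold change of 2.12 (SE 0.20). Rgs18 had 31.1, 54.5 and 40.4 CPM in E12.5 FL, against 10.8, 11.3 and 7.36 CPM in E12.5 PL (2.09, SE 0.20), and Rgs13 had 47.8, 99.0 and 72.1 CPM, against 11.8, 21.5 and 23.0 CPM (1.95, SE 0.20). Rgs2 rose by 0.67 (SE 0.13), and in these 4 genes every E12.5 FL library was above every E12.5 PL library. The share of all genes that separated in this way was not counted. Rgs16 was lower: it had 14.9, 8.03 and 8.14 CPM in E12.5 FL and 15.3, 16.3 and 18.5 CPM in E12.5 PL, without overlap, −0.68 (SE 0.29). Of all genes, 25.2% were called higher and 24.9% lower. The Rgs16 call was lost with total counts and when any 1 of E12.5 FL 2, E12.5 FL 3 or the E12.5 PL libraries was left out.

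**Figure D4:**
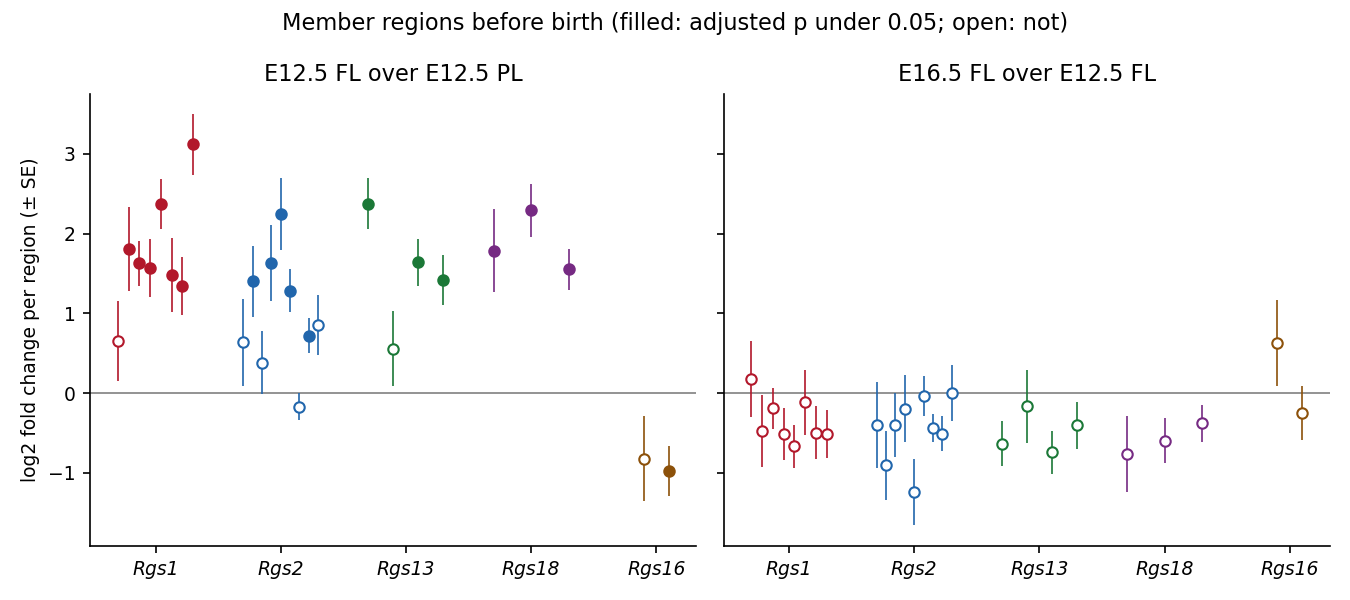
Log2 fold change with its SE of each of the 26 member regions, grouped by gene, in E12.5 FL over E12.5 PL (left) and E16.5 FL over E12.5 FL (right); filled points had an adjusted p under 0.05 by edgeR. In the left panel all 15 regions of Rgs1, Rgs13 and Rgs18 are above 0 and both Rgs16 regions are below it, and in the right panel no point is filled.

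Marker genes of other blood and vessel cells were called between the same libraries. Of 10 macrophage and monocyte markers, 8 were called higher in E12.5 FL, with summed levels of 443 to 486 CPM against 273 to 292 CPM in E12.5 PL. Of 7 neutrophil markers with regions, 5 were higher, at 181 to 201 CPM against 75.8 to 89.0 CPM, and Elane, Ngp and Ly6g had no region. Of 8 megakaryocyte markers with regions, 4 were higher and 0 lower, at 268 to 326 CPM in E12.5 FL against 218 to 242 CPM in E12.5 PL. Of 9 B cell markers 4 were higher and 0 lower (279 to 293 CPM against 238 to 257 CPM), and of 9 mast cell and basophil markers 4 were higher and 1 lower (220.0 to 252 CPM against 245 to 278 CPM). Of 15 LSK markers 8 were higher and 3 lower, and of 7 erythroid markers with regions 3 were higher and 0 lower. Of 10 endothelial markers, 7 were lower and 1 higher, at 745 to 773 CPM against 898 to 1290.0 CPM. Of all genes 25.2% were higher and 24.9% lower. E12.5 FL libraries had 35.8 to 38.1% of their counts at gene ends, and E12.5 PL libraries had 43.1 to 46.3%. The part of cell composition and of library quality in the member values was not tested.

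Between E12.5 and E16.5 the fetal liver gave no call. None of the 26 regions passed the test in E16.5 FL over E12.5 FL by edgeR or by DESeq2, 8 had an unadjusted p under 0.05, and the median log2 fold change was −0.42. The value was above 0 in 1 of 8 Rgs1 regions and 1 of 2 Rgs16 regions and in 0 of the others. Over all regions 0.00101% were called higher and 0% lower, and 7190 of 99005 had an unadjusted p under 0.05 by edgeR. Summed levels had log2 fold changes of −0.34 (SE 0.18) for Rgs1, −0.34 (SE 0.13) for Rgs2, −0.51 (SE 0.19) for Rgs13, −0.46 (SE 0.18) for Rgs18 and 0.08 (SE 0.30) for Rgs16. The Rgs2 value was −0.11 without E12.5 FL 2. It was 0.0064 with only regions whose midpoint lies inside the span, which leaves the lower-coordinate end region alone. Of all genes 0% were called in either direction, with 1347 at an unadjusted p under 0.05. No gene of the pathway lists below was called.

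The wider pathway was read from lists of other genes, counted by calls per gene. In 1w to 8w BM over fetal liver, 4 of 16 other Rgs genes were called higher and 6 lower. Rgs3 (0.31) was higher, and Rgs8 (−0.81), Rgs4 (−2.03) and Rgs5 (−1.56) were lower. Of 28 G protein subunit genes with regions 10 were higher and 6 lower: Gna15, an alpha subunit of blood cells in the Gq class, had 0.75, Gng2 0.41 and Gna13 0.39, and Gnao1, known from neurons, had −0.48. Of all genes, 27.8% were higher and 27.7% lower.

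Receptors and effectors were counted in the same way. Of 48 G protein coupled receptors of blood cells, 21 were higher and 8 lower in marrow, with a median log2 fold change of 0.15. Cxcr4, the chemokine receptor that holds stem cells in marrow, had 0.64, the adhesion receptors Adgrg3 and Adgrg1 had 0.85 and 0.69, and Smo, the transducer of Hedgehog signals, had −1.23. Of 37 receptor kinases, arrestins and effectors, 16 were higher and 8 lower, among them the cyclic AMP response factors Creb1 (0.59) and Crem (0.50), the adenylyl cyclase Adcy7 (0.44) and the phosphodiesterase Pde4b (0.37). Over the 4 lists 51 genes were higher and 28 lower, and with total counts in place of TMM these were 37 and 36, when 37.2% of all gene calls were higher in place of 50.1%. No difference between lists was tested.

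The same lists were counted in the 2 earlier contrasts, which share fetal liver libraries with this one. In E12.5 FL over E12.5 PL, 33 of 48 receptors were higher and 5 lower, among them P2ry12 (2.21), Adgrg3 (1.83), Gpr132 (1.14) and Ccr9 (2.26), and 8 of 16 other Rgs genes were higher and 1 lower, with Rgs14 at 2.31 and Rgs10 at 0.79. Of 28 G protein subunits 7 were higher and 6 lower, and of 37 kinases, arrestins and effectors 16 were higher and 8 lower. Of all genes 25.2% were higher and 24.9% lower there. In perinatal BM over E16.5 FL, 14 of 48 receptors were higher and 1 lower, with Cxcr4 at 0.51 and Cx3cr1 at 0.67, and 3 of 16 other Rgs genes were higher and 2 lower. Of 28 subunits 4 were higher and 1 lower, and of 37 kinases, arrestins and effectors 7 were higher and 0 lower. Of all genes 10.9% were called higher and 5.87% lower at that step. This split of 65% higher was 44.6% with total counts and 53.6% with cyclic loess.

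Marker lists of other cells were read in the same contrast, in which 27.8% of all genes were called higher and 27.7% lower. Of 10 endothelial markers 6 were called lower and 0 higher in 1w to 8w BM, where their summed level ran from 564 to 717 CPM, against 704 to 794 CPM in fetal liver. Of 9 B cell markers with regions 5 were lower and 0 higher, at 231 to 285 CPM in marrow and 274 to 308 CPM in fetal liver. Of 7 neutrophil markers 4 were lower and 1 higher (165 to 217 CPM in marrow, 181 to 201 CPM in fetal liver), and of 10 macrophage and monocyte markers 3 were higher and 1 lower (474 to 562 CPM in marrow, 443 to 486 CPM in fetal liver). Marrow libraries had 39.6 to 42.7% of their counts at gene ends and fetal liver libraries 33.0 to 38.1%. The part of these differences in the levels of the Rgs genes was not tested.

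The cultured cells gave a separate set of libraries, which the choice of the members did not use. The 5 genes had 36 of the 147852 regions counted in them, and none of the 36 was called between co-SHI and SHI by edgeR or by DESeq2, with 6 at an unadjusted p under 0.05. Of all regions 0.228% were called higher and 0.332% lower, and 18097 of the 145129 tested had an unadjusted p under 0.05 by edgeR. The region nearest to the threshold was the higher-coordinate end of Rgs18, chr1:144774929-144775755, with 23.9, 25.98 and 27.3 CPM in co-SHI, against 17.7, 16.3 and 20.1 CPM in SHI (log2 fold change 0.50, SE 0.13, adjusted p 0.0656 by edgeR). It passed the threshold with total counts and with cyclic loess offsets, at adjusted p of 0.0414 and 0.0339 by edgeR.

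Summed per gene, Rgs18 and Rgs2 were higher after 2 h in conditioned medium. Rgs18 had 50.5, 52.1 and 48.2 CPM in co-SHI and 36.9, 27.8 and 42.8 CPM in SHI, without overlap, a log2 fold change of 0.47 (SE 0.11, adjusted p 0.02 by edgeR). Rgs2 had 158, 166 and 167 CPM in co-SHI and 137, 135.5 and 151 CPM in SHI, also without overlap (0.21, SE 0.06, adjusted p 0.0469 by edgeR). Of 17817 genes 4.97% were called higher and 2.03% lower. Both calls were lost when SHI 1, SHI 2, co-SHI 1 or co-SHI 2 was left out, at adjusted p of 0.0755 to 0.182 by edgeR.

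Rgs1, the gene with the largest range over development, had 57.4, 57.0 and 61.6 CPM in co-SHI and 64.9, 50.2 and 62.7 CPM in SHI (−0.03, SE 0.09, adjusted p 0.893 by edgeR). Its tallest developmental region is overlapped by chr1:144243432-144243944, which had 9.31, 6.38 and 8.75 CPM in co-SHI and 8.82, 6.11 and 7.66 CPM in SHI, and the libraries overlapped. Rgs13 had 0.17 (SE 0.10). Rgs16 had 7.83, 9.57 and 9.13 CPM in co-SHI and 11.4, 11.03 and 11.97 CPM in SHI, without overlap, and did not pass the test (−0.38, SE 0.16, adjusted p 0.167 by edgeR).

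**Figure D5:**
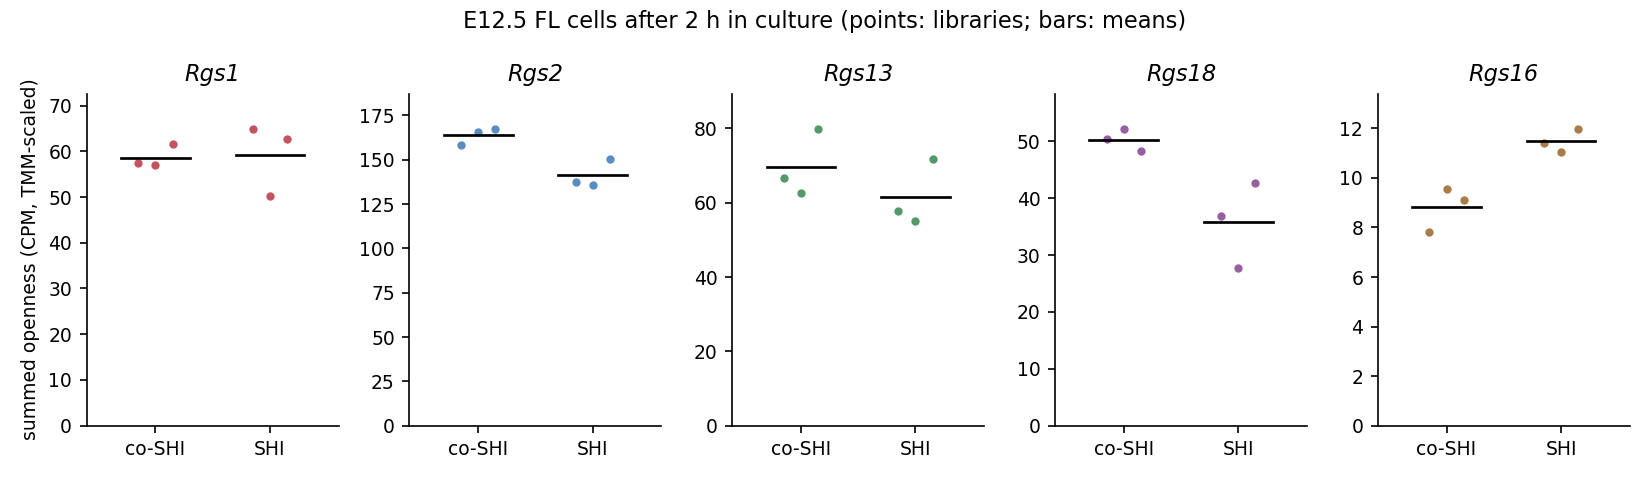
Counts summed per gene in TMM-scaled CPM, on linear axes that start at 0, in co-SHI and SHI libraries; points are libraries and bars are group means. The co-SHI and SHI points do not overlap for Rgs2, Rgs18 and Rgs16, of which Rgs2 and Rgs18 passed the test, and they overlap for Rgs1 and Rgs13. The share of all genes without overlap was not counted.

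In the same comparison the 4 pathway lists gave 1 higher and 0 lower of 16 other Rgs genes, 3 and 1 of 28 G protein subunits, 3 and 3 of 48 receptors, and 1 and 1 of 37 kinases, arrestins and effectors. Of all genes 4.97% were higher and 2.03% lower, and with so few calls nothing is read from the lists. The 8 higher and 5 lower genes are named only to account for them. The receptors Ptger3 (0.37), Ccr1 (0.25) and S1pr1 (0.21), the alpha subunits Gnas (0.29), Gnaz (0.31) and Gnao1 (0.31), Rgs7 (0.39) and Crem (0.27) were higher. Cysltr2 (−0.35), Hrh2 (−0.23), Adgre5 (−0.26), Gnaq (−0.20) and Pde3b (−0.39) were lower. The counts turned on single libraries: leaving out SHI 1, SHI 2, co-SHI 1 or co-SHI 2 left 0 or 1 gene in each direction, leaving out SHI 3 gave 11 higher and 2 lower, and leaving out co-SHI 3 gave 16 higher and 15 lower. All 13 called genes are named, beyond the 4 per list of the naming rule. Co-SHI libraries were deeper, at 14280440 to 20092146 counts, than SHI libraries, at 7512258 to 11655458. Of 10 macrophage and monocyte markers 2 were called higher, at 556 to 577 CPM in co-SHI and 508 to 561 CPM in SHI, and of 9 erythroid markers with regions 2 were called higher, at 256 to 311 CPM in co-SHI and 268 to 275 CPM in SHI. Of 8 hepatocyte markers with regions none was called, at 138 to 156 CPM in co-SHI and 148 to 152 CPM in SHI. The part of depth and of other cells in the Rgs18 and Rgs2 calls was not tested.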

How the data were processed

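ATAC-seq libraries of LSK cells were used, 26 of the developmental series and 6 of cultured cells. Nuclei were tagmented with Tn5 and the fragments amplified by PCR, per the labels' protocols. Among the tools in the submitters' processing notes are HOMER, DiffBind, MACS2, Trim Galore and deepTools, and the build is mm10. The aligner, the peak settings, any Tn5 offset shift and the removal of duplicates are not given in the sources used here. Duplicates left in would make counts less precise than their size says.

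The deposited tables hold raw counts per region, with no scaling. Peak lists were deposited for each library and give a score, a fold enrichment ratio, −log10 p and −log10 q for each peak as the authors' caller wrote them, and were used only for overlap, by 1 base. The cultured table also has 3 columns of uncultured E12.5 FL libraries, left out of all comparisons.

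Regions were assigned to 20479 named genes by spans of GRCm38.p6 (RefSeq), a gene end being within 1000 bp of either end of a span. The strand of Rgs1 and Rgs18 was not used here. Counts were kept by filterByExpr (minimum count 10), scaled by TMM and tested two-sided by quasi-likelihood in edgeR 4.0.16 (R 4.3.3), adjusted by Benjamini-Hochberg over all regions or genes at 0.05, with a mean for each of 9 groups. The 6 cultured libraries were fitted alone. Log2 levels used a prior count of 2. The members and the pathway and marker lists were chosen with earlier results of these data known. Named were all members, of each pathway list the 4 called genes of smallest p per comparison, the genes most like each member by Pearson r, and neighbours within 500000 bp. The fit was tested on simulated data. Alternatives were DESeq2 1.42.0, its size factors, total counts, cyclic loess offsets from limma 3.58.1 (span 0.3), no filter, other regions per gene, a fit of the compared groups alone, a replicate block and leaving out each library. Python 3.11.15, pandas 2.3.3 and matplotlib 3.10.9 were used.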

Additional observations from a re-analysis of the deposited data

How the results depend on the processing

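Among the member regions of E12.5 FL over E12.5 PL, the count of lower calls (1) was 0 with total counts, 2 with cyclic loess and with DESeq2, and 0 to 2 when a library was left out. The Rgs16 call of that comparison is the lower count of 1 among genes. It was 0 with total counts, with gene ends and with the compared groups alone, and 0 to 1 over left-out libraries. For 1w to 8w BM over fetal liver, log2 fold changes moved to 0.27 for Rgs2 and 0.45 for Rgs16 with cyclic loess, to 2.02 for Rgs1 and 0.80 for Rgs2 with regions inside the span, and to 1.93 for Rgs1 with gene ends. A region counts as inside the span by its midpoint, which for the developmental regions leaves chr1:144244736-144245397 for Rgs1 and chr1:143999310-144000454 for Rgs2. Rgs13 has no developmental region inside its span or at an end, so these alternatives gave no value. Rgs16 has none inside its span, so that alternative could not call it. Higher calls in the pathway lists were 33 with cyclic loess and 30 with gene ends, in place of 51. In co-SHI over SHI, 1 member region was higher with total counts and with cyclic loess, in place of 0. Of the 2 member genes higher, 1 was left with regions inside the span and with gene ends, and 0 to 2 over left-out libraries. Pathway genes there were 5 higher and 3 lower inside spans, 1 and 0 at gene ends, and 0 to 16 and 0 to 15 over left-out libraries. In E16.5 FL over E12.5 FL, Rgs2 had −0.34 and was at 0.0064 with regions inside the span. Values near 0 changed sign: in the same contrast Rgs16 had −0.13 at gene ends and ran from −0.31 to 0.45 over left-out libraries, and Rgs1 in co-SHI over SHI ran from −0.12 to 0.044. The causes were not tested.

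Deviations from the group mean were compared between libraries of different groups. Same-numbered developmental libraries had r of −0.10 to 0.17, median 0.01, over 100 pairs, and other-numbered ones −0.17 to 0.17, median −0.005, over 200. In the cultured libraries these were −0.02 to 0.06, median 0.045, over 3 pairs and −0.06 to 0.035, median −0.0065, over 6. The main fits used no pairing. These values do not settle whether the numbers pair the samples, and the cultured pairs are few. With the replicate block, the log2 fold change of Rgs2 summed, co-SHI over SHI, was 0.21 at adjusted p 0.05265 by edgeR, which left 1 member gene called higher.

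With 2 or 3 libraries a group no outlier test was made, and regions of a few CPM rest on few reads.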
